A study of Mus musculus with 2 samples.

Results

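The genes described here are Igf2, H19, Cdkn1c, Kcnq1ot1, Phlda2 and Nap1l4, which belong to 2 neighbouring imprinted clusters on distal mouse chromosome 7. They were taken by gene symbol, and all 6 were found among 55536 annotated genes. Total RNA was sequenced from adrenal glands of adult male mice aged 8 to 10 months. The mice came from a cross of 5xFAD, a transgenic line that models amyloid deposition in the brain, with CAST, a wild-derived inbred strain. The study held 2 libraries of this 1 group, numbered biological replicates 1 and 2 in the labels, with every animal carrying the same cross and age range. The labels list a separate biosample for each library but the same donor entry for both, so the spread between them may be technical. There was no second condition to compare with, and no test was run, because a two-sided sign-flip test of 2 values has a smallest p of 0.5.

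An imprinted gene is transcribed mainly from the copy inherited from 1 parent. In the Igf2-H19 cluster a methylated or CTCF-bound control region between the genes directs shared enhancers to paternal Igf2 or to maternal H19. In the Cdkn1c cluster the paternal copy transcribes Kcnq1ot1, a long antisense RNA that silences neighbours such as Cdkn1c and Phlda2 in cis, so that these are transcribed from the maternal copy. In humans, variants of CDKN1C cause IMAGe syndrome, of which adrenal hypoplasia is a part. The deposited values hold no allele counts, so parental origin was not measured, and reads of CAST copies were matched to mm10, which is not built from CAST.

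The depth over annotated genes was 29204618 counts for replicate 1 and 26322446 counts for replicate 2. The libraries differed by more than counting error, with a chi-square of 10.4 per degree of freedom over 16383 genes, so they are not 1 library deposited again. All 6 markers of the adrenal cortex and all 5 of chromaffin cells, the catecholamine cells of the medulla, were at 84.8 TPM or more in both libraries. TPM is a level per unit of transcript length, scaled to the same total in each library. Kidney and skeletal muscle markers summed to 2.21 and 1.37 TPM in replicate 1 and to 1.34 and 1.21 TPM in replicate 2. White adipocyte markers summed to 641 TPM in replicate 1 and 384 TPM in replicate 2, and macrophage markers to 209 and 136 TPM. Markers of the capsule and fibroblasts summed to 164 and 179 TPM, of endothelium to 247 and 253 TPM, and of smooth muscle to 57.8 and 45.8 TPM. In bulk tissue, fewer cells of a type and less RNA per cell cannot be told apart.

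All 6 genes lie on the minus strand of chromosome 7 in mm10. H19 spans 142575529 to 142578143, Igf2 142650766 to 142666816, and Kcnq1ot1 143203458 to 143296549. Cdkn1c spans 143458339 to 143461050, Phlda2 143501545 to 143503150, and Nap1l4 143513579 to 143549106. H19 and Igf2 are 72.6 kb apart, Igf2 and Kcnq1ot1 537 kb, Kcnq1ot1 and Cdkn1c 162 kb, and Cdkn1c and Phlda2 40.5 kb. Phlda2 and Nap1l4 are 10.4 kb apart. The stretch holds 41 annotated genes over 974 kb, of which 11 reached 1 TPM in both libraries and 13 had no count in either. Of all annotated genes 25.5% reached 1 TPM in both, so the stretch is close to that share.

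Upstream sequence is shown for 3 genes of unlike output: Igf2 at the start of its transcript 201, Kcnq1ot1, with the most counts of the 6 genes, and Phlda2, with the fewest. Each run holds the 250 bases before the RefSeq start on the minus strand of GRCm38.p6. Capitals mark the hexamer TATAAA, the pentamer CCAAT and the hexamer GGGCGG, read on both strands, and none of the matches overlap.
Igf2, chr7:142657497-142657746: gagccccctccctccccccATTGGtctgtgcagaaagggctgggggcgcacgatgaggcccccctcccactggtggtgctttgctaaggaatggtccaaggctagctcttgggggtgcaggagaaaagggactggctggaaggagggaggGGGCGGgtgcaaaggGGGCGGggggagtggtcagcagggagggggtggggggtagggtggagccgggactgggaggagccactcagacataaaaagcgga
Kcnq1ot1, chr7:143296548-143296797: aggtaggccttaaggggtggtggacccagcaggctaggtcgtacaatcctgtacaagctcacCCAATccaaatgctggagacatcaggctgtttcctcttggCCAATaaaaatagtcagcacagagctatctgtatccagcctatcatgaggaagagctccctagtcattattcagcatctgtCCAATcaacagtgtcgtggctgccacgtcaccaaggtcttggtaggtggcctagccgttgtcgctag
Phlda2, chr7:143502525-143502774: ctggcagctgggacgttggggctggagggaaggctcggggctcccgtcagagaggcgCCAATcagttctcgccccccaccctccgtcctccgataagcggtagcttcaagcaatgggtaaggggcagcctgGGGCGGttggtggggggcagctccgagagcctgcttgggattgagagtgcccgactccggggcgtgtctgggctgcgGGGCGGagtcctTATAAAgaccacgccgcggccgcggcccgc
The Igf2 window holds 1 CCAAT and 2 GGGCGG, the Kcnq1ot1 window 3 CCAAT, and the Phlda2 window 1 TATAAA, 1 CCAAT and 2 GGGCGG. The TATAAA of Phlda2 begins 30 bases before the start. Of 32851 promoter windows in the table, 12.4% hold TATAAA, 33.8% CCAAT and 32.7% GGGCGG. The Phlda2 window has 21 CpG, the Igf2 window 6 and the Kcnq1ot1 window 5, beside a median of 6 over all windows. A match in these letters is a description and shows no bound factor. RefSeq promoters were matched for 3 of the 6 genes, in 6 windows of which 4 are of Igf2; H19, Cdkn1c and Nap1l4 were not matched.

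Both genes of the first cluster host a microRNA. Mir483, at 142654924 to 142654996, lies in intron 2 of Igf2-201, and Mir675, at 142577064 to 142577147, in exon 1 of H19-202. Their mature forms follow from RefSeq, with the seed, bases 2 to 8, in capitals.
mmu-miR-483-5p: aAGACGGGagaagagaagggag
mmu-miR-483-3p: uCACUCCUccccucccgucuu
mmu-miR-675-5p: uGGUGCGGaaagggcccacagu
mmu-miR-675-3p: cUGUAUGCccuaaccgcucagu
No 2 of these seeds are the same. Both microRNA genes had 0 counts in both libraries. Their effective length was 0 in the gene table, so these zeros are no measurement of the microRNAs.

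Cdkn1c and Nap1l4 were well expressed, Igf2 and Kcnq1ot1 were low, H19 was below 1 TPM on few counts, and Phlda2 was at or under 3 counts in each library. In this order of mean level the ranges of the 2 libraries did not overlap between any of the 5 pairs of neighbours. The order was set by these same values. For H19 and Phlda2 the authors' TPM intervals did overlap, at 0.483 to 1.30 and 0.112 to 0.868 in replicate 1. In replicate 2 they were 0.661 to 1.58 and 0.107 to 0.983. Detection was set at 1 TPM in each of the libraries, which 4 of the 6 genes passed, against 25.5% of all annotated genes. The 6 genes together summed to 139 TPM in replicate 1 and 153 TPM in replicate 2, and their median was 4.86 and 5.92 TPM.

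**Figure D1:**
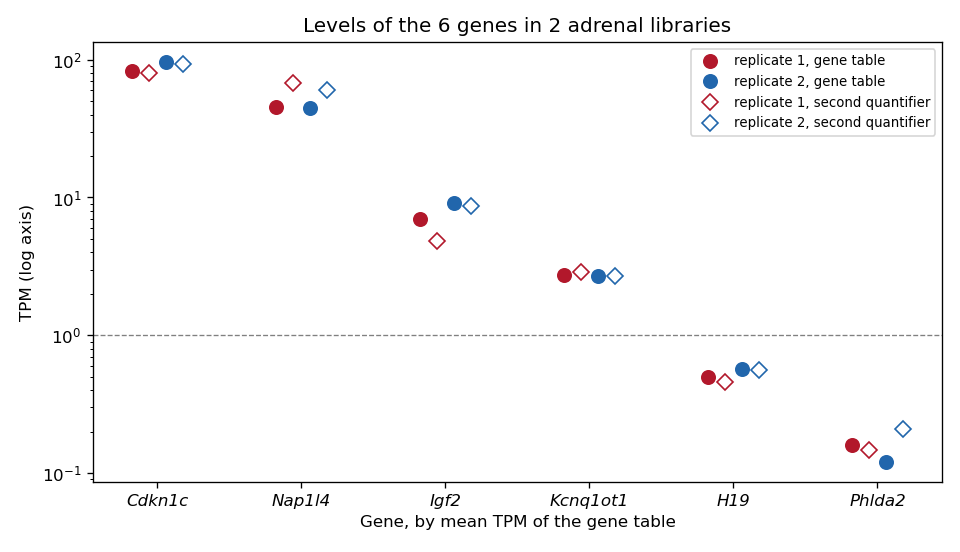
TPM of the 6 genes (log axis) in replicate 1 and replicate 2, filled circles for the gene table and open diamonds for the second quantifier; the dashed line is 1 TPM. Cdkn1c lies highest at 83.1 and 95.6 TPM in the gene table and Phlda2 lowest at 0.16 and 0.12 TPM. For Nap1l4 both diamonds lie above both circles.

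Cdkn1c encodes p57, an inhibitor of cyclin-dependent kinases that holds cells out of the cycle. It stood at 83.1 TPM on 3213 counts in replicate 1 and at 95.6 TPM on 3349 counts in replicate 2, a mean of 89.4 ± 8.87 TPM (SD, n = 2). Of the detected genes, 95.3% had a lower mean TPM. With the length of the longest transcript, Cdkn1c-201 of 1901 bases, the same counts gave 62.3 TPM in replicate 1 and 72.7 TPM in replicate 2. The intervals that the authors deposited for TPM, 77.7 to 85.5 in replicate 1 and 89.5 to 98.0 in replicate 2, did not overlap. On TMM-scaled counts the log2 ratio of replicate 1 to replicate 2 was -0.20 ± 0.04, where the error is the counting SE, and it was -0.10 when scaled by spike-in totals. Replicate 1 was therefore the lower one under both scalings, by less than the 1.5-fold used as the limit here. Within each library Cdkn1c was 10.4 and 11.6 times Cdkn1a, the gene of p21, in TPM, and 6.76 and 7.16 times Cdkn1b, the gene of p27. Both ratios to the other CIP/KIP inhibitors were thus similar in replicates 1 and 2.

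Nap1l4, a histone chaperone gene of the nucleosome assembly protein family, was at 45.8 TPM on 2298 counts in replicate 1 and 44.5 TPM on 2098 counts in replicate 2. Its mean was 45.1 ± 0.912 TPM (SD, n = 2), and 88.1% of detected genes were lower. The libraries gave nearly the same value, with a log2 ratio of -0.01 ± 0.04. Cdkn1c was 1.82 times Nap1l4 in replicate 1 and 2.15 times in replicate 2, and in the second quantifier, described further on, 1.16 and 1.56 times.

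Igf2, a growth factor that drives fetal growth, was at 6.97 TPM on 381 counts in replicate 1 and 9.15 TPM on 430 counts in replicate 2. The mean was 8.06 ± 1.54 TPM (SD, n = 2) and 41.0% of detected genes were lower. The authors' intervals of 5.53 to 8.68 and 7.14 to 11.3 TPM overlapped. The log2 ratio was -0.32 ± 0.10, so replicate 1 was lower by more than its counting error and by less than 1.5-fold. The level depends on the length that counts are divided by: with the length of the longest transcript, Igf2-205 of 4722 bases, the same counts gave 2.88 TPM in replicate 1 and 3.64 TPM in replicate 2. The authors' mean was 2.47 times the mean on that length.

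Kcnq1ot1, the antisense RNA of the Cdkn1c cluster, had 7334 counts in replicate 1 and 6386 counts in replicate 2, more than any other of the 6 genes. Among 2959 genes of the antisense class it ranked 1 by mean count, which is not divided by length, and 64 by mean TPM. Spread over a single annotated transcript of 93092 bases, these counts came to 2.75 and 2.68 TPM, a mean of 2.71 ± 0.0495 TPM (SD, n = 2). Per length it was thus lower than Igf2, which had 0.0519 and 0.0673 times its counts but 2.53 and 3.41 times its TPM. In the second quantifier Igf2 had 1.69 and 3.19 times its TPM. The size of this gap depends on the length used for Igf2, which on its longest transcript came to 2.88 and 3.64 TPM. The log2 ratio of Kcnq1ot1 between the libraries was 0.06 ± 0.02. Kcnq1, a potassium channel gene whose span holds Kcnq1ot1 on the opposite strand, was at 4.83 TPM on 334 counts in replicate 1 and 4.45 TPM on 271 counts in replicate 2. Libraries were strand-specific per the labels, but whether strand was used in counting is not given in the sources used here, so reads of the overlap may not be told apart.

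H19, a long noncoding RNA that is abundant in the fetus, was at 0.50 TPM on 18 counts in replicate 1 and 0.57 TPM on 26 counts in replicate 2, a mean of 0.535 ± 0.0495 TPM (SD, n = 2). The exact Poisson 95% intervals of the counts were 10.7 to 28.4 and 17.0 to 38.1, which overlap widely. Its TPM in replicate 2 lay under the authors' own interval of 0.661 to 1.58 TPM. Of the 12 TPM values of the 6 genes, 3 lay outside their own interval. Kcnq1ot1 in replicate 2 was another of them, at 2.68 TPM beside 2.55 to 2.67 TPM. The authors' posterior mean for H19, their other estimate of the level, was 0.87 TPM in replicate 1 and 1.10 TPM in replicate 2. H19 ranked 353 by mean TPM among 5854 lincRNA genes. Igf2 was 13.9 times H19 in replicate 1 and 16.1 times in replicate 2.

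Phlda2, a pleckstrin homology domain gene that restrains placental growth, had 3 counts in replicate 1 and 2 counts in replicate 2. These gave 0.16 and 0.12 TPM, a mean of 0.14 ± 0.0283 TPM (SD, n = 2), and the exact Poisson intervals were 0.619 to 8.77 and 0.242 to 7.22 counts. The posterior mean was 0.46 TPM in replicate 1 and 0.50 TPM in replicate 2, both above the TPM of the same library. Both counts were at or under the floor of 3 counts, and no ratio between the libraries was called.

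**Figure D2:**
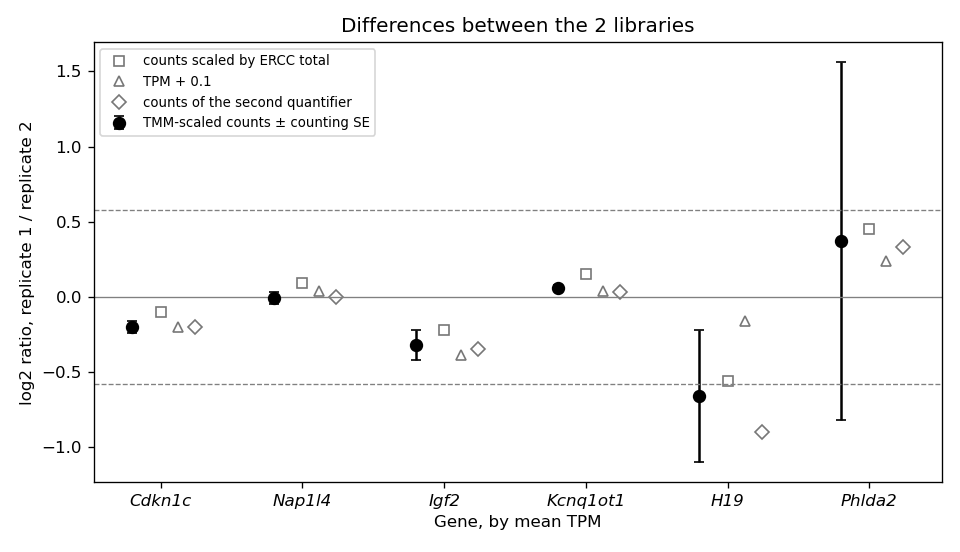
The log2 ratio of replicate 1 to replicate 2 for each gene, as TMM-scaled counts with the counting SE (filled circles) and under 3 other choices (open symbols); dashed lines mark 1.5-fold and the solid line no difference. Cdkn1c, at -0.20, and Igf2, at -0.32, lie below 0 under each choice, and H19, at -0.66, crosses the dashed line by TMM-scaled counts and by the second quantifier only.

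Ratios were read for the 5 genes whose mean count reached 20. H19 alone was past 1.5-fold between the libraries, with a log2 ratio of -0.66 ± 0.44, while 6.71% of 16383 genes with that count were past it. None of the 5 was past it on the higher side in replicate 1, where 4.03% of genes were, and 1 was on the lower side, where 2.69% were. The H19 call rests on 18 against 26 counts. It was lost when the ratio was taken from TPM, which gave -0.16, from counts scaled by spike-in totals, which gave -0.56, or with a prior count of 5, which gave -0.55. Spike-in scaling moved the median log2 ratio of all genes to 0.103, from 0.006 under TMM. Chromaffin markers summed to 1981 TPM in replicate 1 and 2289 TPM in replicate 2, with a median log2 ratio of -0.17 over all 5, the same sign as Cdkn1c, Igf2 and H19. The 5 white adipocyte markers had a median of 0.85, the opposite sign, and 4 of them were past 1.5-fold. The lowest value of any of these markers was 11.9 TPM, and their part in the ratios of the 6 genes was not tested.

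A second set of deposited values, called the second quantifier here, was estimated from the reads without an alignment file. It placed the 6 genes in the same order. Cdkn1c was at 86.3 ± 9.73 TPM there, Igf2 at 6.74 ± 2.70 TPM, Kcnq1ot1 at 2.79 ± 0.102 TPM, H19 at 0.506 ± 0.0689 TPM and Phlda2 at 0.177 ± 0.0438 TPM (SD, n = 2 each). Nap1l4 stood apart, at 45.8 and 44.5 TPM in the gene table for replicates 1 and 2, and at 68.3 and 59.8 TPM in the second quantifier. The second quantifier was 1.42 times the gene table for Nap1l4 in TPM but 1.05 times in CPM, counts scaled to each library's total without a length. None of the 4 genes at a mean of 1 TPM or more differed by 1.5-fold or more, beside 13.3% of 15872 genes. For a set of 4 genes, none is close to that share. For Kcnq1ot1, in CPM the second quantifier was 1.24 times the gene table, and in TPM 1.03 times.

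The annotated transcripts of 4 genes divided the signal in different ways. Cdkn1c was divided alike in both libraries of the gene pipeline. Its transcript 201 held 46.8% of the gene's TPM in replicate 1 and 49.6% in replicate 2, and 202 held 17.1 and 15.7%. The shorter 205, of 667 bases, held 33.7 and 33.4% of TPM on 14.2 and 13.8% of the gene's counts. The second quantifier gave Cdkn1c-201 47.2% in replicate 1 and 50.3% in replicate 2, and Cdkn1c-205 37.8 and 34.6%. It gave less to Cdkn1c-202, 11.2 and 6.15%, and more to Cdkn1c-204, a retained-intron model, which held 2.01 and 1.30% in the gene pipeline, against 3.88 and 9.0% in the second quantifier. Kcnq1ot1 has 1 annotated transcript, and all Phlda2 counts went to Phlda2-201, of 757 bases, in the gene pipeline. The second quantifier gave Phlda2-201 100% of Phlda2 TPM in replicate 1 and 37.2% in replicate 2. In replicate 2 it gave 62.8% to Phlda2-202, on 0.628 counts.

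Nap1l4 was divided differently by the quantifiers. The gene pipeline placed 56.5 and 48.9% of Nap1l4 TPM in Nap1l4-206 in replicates 1 and 2, where the second quantifier gave it 4.24 and 7.0%. The second quantifier placed 37.5 and 35.5% in Nap1l4-205, a coding model of 352 bases, on 5.02 and 3.69% of the gene's counts. Most counts went to Nap1l4-209 there, 56.9% in replicate 1 and 52.1% in replicate 2. Nap1l4-206, 209 and 201 are all long coding models, of 2259, 2281 and 2285 bases. The share of a short model weighs more in TPM than in counts, and the higher Nap1l4 level in the second quantifier went with such a share.

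**Figure D3:**
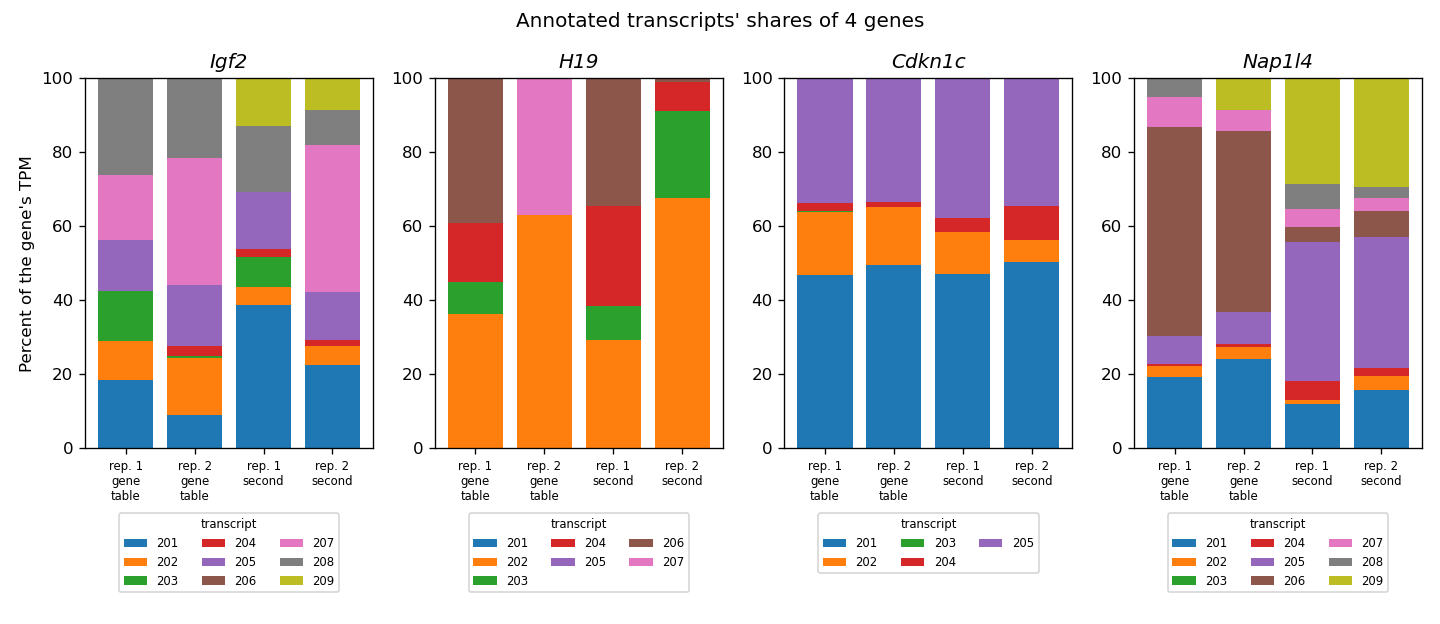
Percent of the gene's TPM held by each annotated transcript of Igf2, H19, Cdkn1c and Nap1l4, in replicates 1 and 2 of the gene pipeline (left pair of bars) and of the second quantifier (right pair). Cdkn1c-201 holds between 46.8 and 50.3% in all 4 bars, while Nap1l4-206 leads only in the gene pipeline, with 56.5 and 48.9%.

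Igf2 has 9 annotated transcripts that begin at several first exons within a gene of 16.1 kb. The transcripts that begin at 142657466 to 142657496, Igf2-202 and 201, held 48.4% of Igf2 counts in replicate 1 and 37.9% in replicate 2. Igf2-205, which begins at 142659489, held 33.4 and 41.1%. The transcripts of these 2 starts thus held most estimated Igf2 counts in both libraries. In the second quantifier those of the first start held 59.9 and 53.2% of counts, and that of the second 28.5 and 34.4%. These are estimates over whole transcripts, which share later exons, and not reads of the first exons alone. The start at 142666816, of Igf2-203, held 3.88% of counts in replicate 1 and 0.216% in replicate 2. By TPM, which divides by length, the same starts held less: 29.1 and 24.4% for the first and 13.8 and 16.3% for the second. Igf2-208, a noncoding model of 958 bases that begins at 142653030, held 26.2 and 21.5% of Igf2 TPM on 44.9 and 43.1 counts. Igf2-207, a coding model of 376 bases, held 17.4% of Igf2 TPM in replicate 1 on 9.59 counts and 34.4% in replicate 2 on 22.2 counts. In the second quantifier Igf2-207 held 0 in replicate 1 and 39.7% in replicate 2, so its share in replicate 1 rests on the gene pipeline alone. The 2 main starts had more counts, 185 in replicate 1 and 163 in replicate 2 for Igf2-201 and 202 together. Igf2-205 had 127 and 177 counts. These counts are scaled for neither depth nor transcript length. In TPM replicate 2 was the higher library for both starts. The first start had 2.03 and 2.23 TPM, and the second 0.96 and 1.49 TPM. Within the first, Igf2-201, of 3708 bases, had 134 and 77.2 counts in replicates 1 and 2. The shorter Igf2-202, of 2503 bases, had 50.5 and 85.8 counts.

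H19 has 7 annotated transcripts, and with 18 and 26 counts their shares cannot be settled. H19-202, the longest at 2286 bases, held 36.3% of H19 TPM in replicate 1 and 63.1% in replicate 2. H19-206 held 39.1% in replicate 1 on 3.72 counts and 0 in replicate 2, and H19-207 held 0 in replicate 1 and 36.9% in replicate 2 on 5.82 counts.

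Apart from Kcnq1, the overlapping genes examined took few reads. Gm49394, a coding model that overlaps Igf2 on the same strand, had 0 counts in both libraries. Igf2os, antisense to Igf2, had 8 counts in each. Gm44732, antisense to Cdkn1c, had 19 counts in replicate 1 and 15 in replicate 2, at 1.24 and 1.10 TPM, beside 3213 and 3349 counts of Cdkn1c. Within Nap1l4 the snoRNA model Gm23297 had 17 and 16 counts, which over an effective length of 27 bases gave 22.0 and 23.2 TPM. The second quantifier gave it 0 TPM in both libraries.

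The genes around the clusters ranged between 0 and 299 TPM. Of all 41 annotated genes in the 974 kb, 11 were detected. Of the 24 neighbours chosen for the list 13 were detected, beside 25.5% of all genes. The highest were Ctsd, a lysosomal protease gene, at 262 TPM in replicate 1 and 246 TPM in replicate 2, and Dhcr7, an enzyme gene of cholesterol synthesis, at 228 and 299 TPM. Cd81, a tetraspanin gene, was at 243 and 244 TPM, and Th, the tyrosine hydroxylase gene of chromaffin cells, at 210 and 216 TPM. Ascl2, a transcription factor gene of the placenta that is imprinted with Cdkn1c, was at 0.05 TPM in both libraries on 1 and 2 counts. Slc22a18, a transporter gene next to Cdkn1c, was at 0.95 and 1.02 TPM, and Cdkn1c was 87.5 and 93.8 times that level. Ins2, the insulin gene beside Igf2, and Nctc1, next to H19, had no count in either library. Of the neighbours the others below 1 TPM in a library were Syt8, Tnni2, Tnnt3, Igf2os, Tspan32, Trpm5 and Tnfrsf26. Tspan32 alone among the 16 neighbours with enough counts was past 1.5-fold, beside 6.71% of all genes, at 0.74 TPM on 31 counts in replicate 1 and 0.46 TPM on 15 counts in replicate 2, a log2 ratio of 0.88. The median log2 ratio over the 16 was -0.04, beside 0.006 for all genes. The 6 genes held 21.9% of the TPM summed over the 974 kb in replicate 1 and 23.1% in replicate 2, and 38.5 and 39.0% of the counts.

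**Figure D4:**
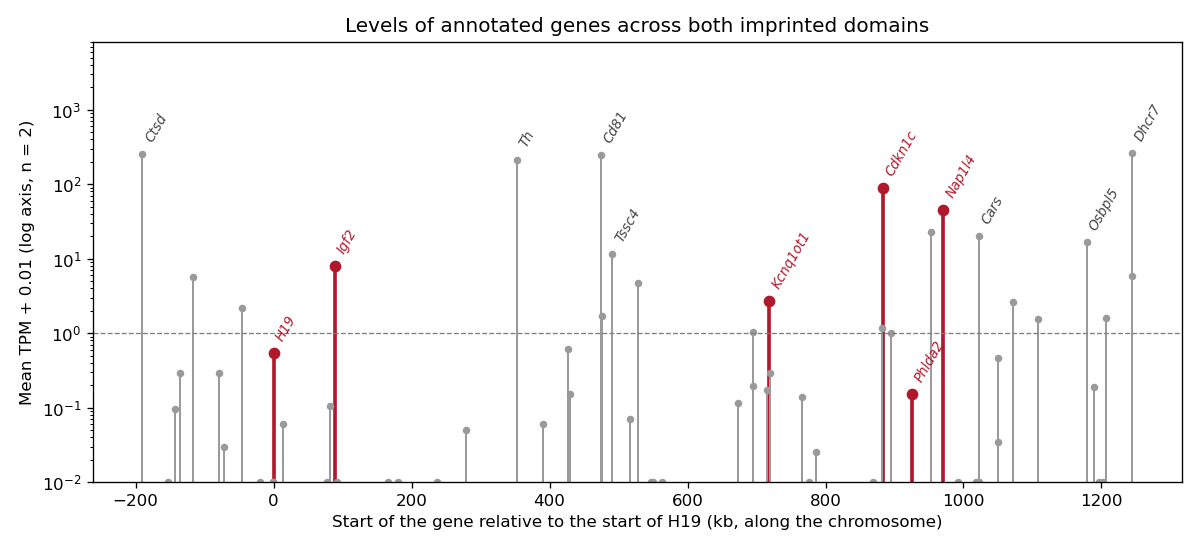
Mean TPM plus 0.01 (log axis, n = 2) of each annotated gene from Ctsd to Dhcr7, placed by the distance of its start from the start of H19 in kb; the 6 genes are in red, other genes in grey, and the dashed line marks 1 TPM. Cdkn1c at 89.4 TPM and Nap1l4 at 45.1 TPM stand on either side of Phlda2 at 0.14 TPM.

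Receptors and binding proteins of the IGF system were measured beside Igf2, and 12 of the 16 listed genes were detected. For this list and those that follow, the shares over all genes are 25.5% detected and 6.71% past 1.5-fold, and a list of this size with 0 or 1 gene past 1.5-fold is close to that share. Igfbp7, a secreted IGF-binding protein gene, led with 188 TPM in replicate 1 and 191 TPM in replicate 2, followed by Igfbp5 at 69.4 and 56.0 TPM. The insulin receptor gene Insr was at 45.0 and 51.9 TPM, and Igf1r, the main signalling receptor for both IGFs, at 31.8 and 33.8 TPM. Igf2r, which removes IGF2 from the cell surface and is itself imprinted, was at 29.8 and 28.2 TPM. Igf2 was 0.234 times Igf2r in replicate 1 and 0.325 times in replicate 2, so the ligand's TPM was below that of each of these 3 receptors. Igfbp1 had no count, and Igfbp2, Igf2bp1 and Igf2bp3 were below 1 TPM in at least 1 library. Igf1 was at 6.31 TPM on 469 counts in replicate 1 and 3.13 TPM on 283 counts in replicate 2, a log2 ratio of 0.59, and was the 1 of 13 listed genes past 1.5-fold. The ratio of Igf2 to Igf1 in TPM was 1.10 in replicate 1 and 2.92 in replicate 2. In the second quantifier it was 0.808 in replicate 1 and 2.87 in replicate 2, so which of the ligands was higher in replicate 1 depended on the quantifier. The white adipocyte and macrophage sums given above were also higher in replicate 1. Of the 4 macrophage markers 2 were past 1.5-fold, while C1qb had a log2 ratio of 0.17 and Csf1r of -0.14. The part of either marker set in the Igf1 difference was not tested.

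Of 14 listed cyclin-dependent kinase inhibitors and their targets, 12 were detected. The cyclin genes Ccnd2, at 188 TPM in replicate 1 and 213 TPM in replicate 2, and Ccnd3, at 117 and 122 TPM, were the highest. Cdk4, the kinase that D cyclins bind, was at 78.1 and 86.2 TPM, and Ccnd1 at 65.2 and 51.8 TPM. Every other inhibitor gene of the list was lower than Cdkn1c in both libraries. Among them Cdkn1a was at 7.98 and 8.22 TPM and Cdkn1b at 12.3 and 13.4 TPM. Cdkn2c, the gene of the INK4 inhibitor p18, was at 22.6 TPM on 752 counts in replicate 1 and 15.4 TPM on 444 counts in replicate 2, a log2 ratio of 0.62, the 1 of 13 past 1.5-fold. Ccne1 and Ccne2, genes of E cyclins, were below 1 TPM in at least 1 library.

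Of the 6 paralogs of Nap1l4 and Phlda2, 5 were detected. Nap1l1, the closest in level to Nap1l4, was at 38.9 TPM in replicate 1 and 41.0 TPM in replicate 2, and Nap1l4 was 1.18 and 1.09 times as high. In the second quantifier this ratio was 1.83 and 1.63. Nap1l5, an imprinted retrogene of the family, was at 11.2 and 17.1 TPM. Phlda1 was at 26.7 and 23.9 TPM and Phlda3 at 10.7 and 9.46 TPM, so of the 3 Phlda genes Phlda2 was lowest; Phlda1 was 167 and 199 times its TPM, on 3 and 2 Phlda2 counts. Nap1l2 was past 1.5-fold, at 0.41 TPM on 28 counts in replicate 1 and 0.73 TPM on 44 counts in replicate 2, a log2 ratio of -0.78, and the other 5 were not.

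**Figure D5:**
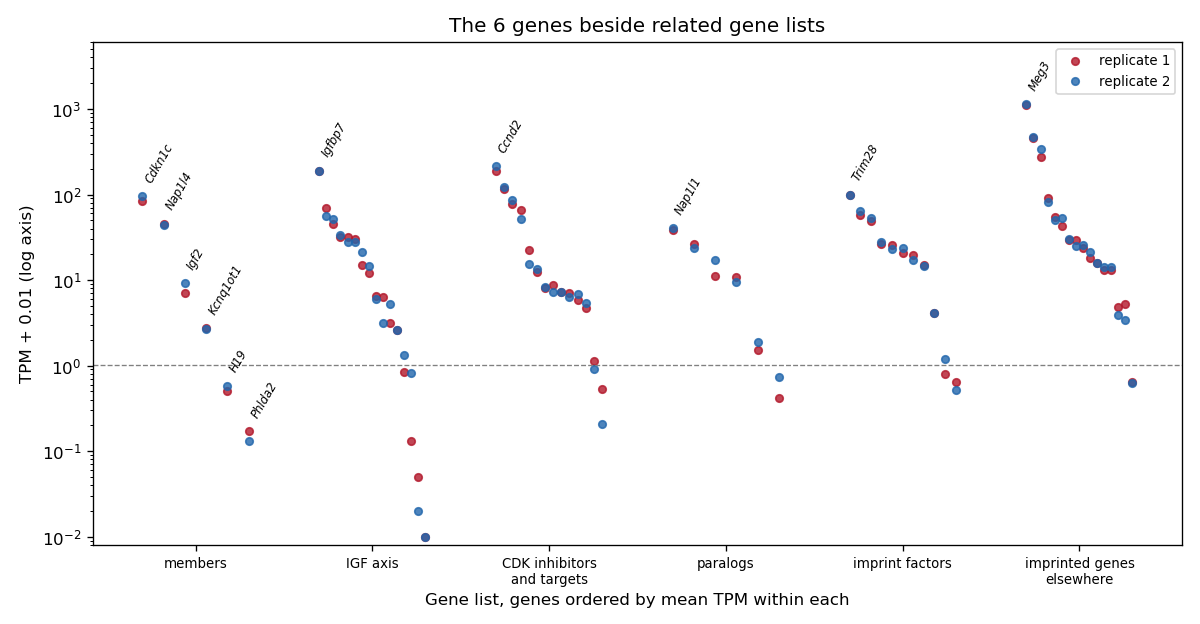
TPM plus 0.01 (log axis) of the 6 genes, labelled members, and of 5 related gene lists in replicates 1 and 2, ordered by mean level within each list, with the highest gene of each list named; the dashed line marks 1 TPM. Cdkn1c, at 83.1 and 95.6 TPM, stands below Meg3, at 1113 and 1132 TPM, and its values lie on either side of those of Peg10 in 1 library each, with 89.8 and 82.2 TPM for Peg10.

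Factors that keep or read imprints formed a list of 11 genes. Of these 9 were detected and none was past 1.5-fold between the libraries. Trim28, the co-repressor gene, was at 97.5 TPM in replicate 1 and 99.6 TPM in replicate 2, Ehmt2, a histone methyltransferase gene, at 58.3 and 63.4 TPM, and Zfp445 at 48.8 and 53.6 TPM. Zfp445 and Zfp57 encode zinc finger proteins that bind methylated imprinting control regions. Zfp57 was at 0.64 and 0.51 TPM, and Uhrf1, which guides maintenance methylation, at 0.79 and 1.19 TPM. Dnmt3a, a DNA methyltransferase gene, was at 26.5 and 27.9 TPM.

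Imprinted genes elsewhere in the genome gave a scale for the 6 genes. All but 1 of the 16 listed were detected, and their median level was 26.7 TPM in replicate 1 against 25.4 TPM in replicate 2. Meg3, a maternally expressed long noncoding RNA, was at 1113 and 1132 TPM, and Rian, of the same cluster, at 464 and 465 TPM. Dlk1, a paternally expressed gene of that cluster, was at 273 and 344 TPM, and Peg10, a retrotransposon-derived gene, at 89.8 and 82.2 TPM. Cdkn1c was 0.0747 times Meg3 in replicate 1 and 0.0845 times in replicate 2. Usp29 was below 1 TPM in both libraries, and none of the 16 was past 1.5-fold.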

How the data were processed

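Per the labels, 300 ng of total RNA, reduced of ribosomal RNA and with ERCC spike-ins, gave strand-specific libraries. Per the library notes, the authors aligned reads to mm10 with GENCODE M21 and deposited, per library and without pooling, expected counts, TPM and FPKM per gene, and the percent of a gene's TPM in each of its transcripts. The authors' interval bounds were deposited as a signal on the TPM scale. A second quantifier gave deposited estimated counts and TPM per transcript, summed here per gene. For the alignment and both estimates, tool names are not given in the sources used.

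Counts were rounded and scaled by TMM (edgeR 4.0.16, R 4.3.3; factors 0.997 and 1.00), with a prior count of 0.5; spike-ins, 0.468 and 0.504% of counts in replicates 1 and 2, and entries that name no gene were left out. DESeq2 1.42.0 size factors were an alternative. Python 3.11.15, numpy 2.4.6, pandas 2.3.3, scipy 1.17.1 and matplotlib 3.10.9 were used. A pseudocount of 0.1 TPM was added for ratios between quantifiers. The ratio script was tested on simulated data with known ratios. Errors and Poisson intervals cover counting error only, as reads are not independent molecules. Named list genes are the 4 highest by mean TPM, those below 1 TPM in either library, and those past 1.5-fold with a mean count of at least 20. Igf2r, Cdkn1a, Cdkn1b, Kcnq1 and the other overlapping genes fall outside this rule and were added after their values were seen. The 6 genes and all lists were chosen with earlier results of these data known. The planned protein sequences were not used here.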

Additional observations from a re-analysis of the deposited data

How the results depend on the processing

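Of the counts of genes given in the report, the number detected was between 3 and 5 under every limit, unit and quantifier tried, and 4 without either library. The number past 1.5-fold between the libraries, 1 in the report, was 0 with spike-in totals, with a mean count of at least 100, with a prior count of 5, with TPM and at 2-fold; H19 is the gene lost each time, and the cause was not tested beyond the alternatives' own construction. The 5 separate neighbours in the order of levels and the 0 genes that differed by 1.5-fold between quantifiers did not change under any alternative run. The authors' intervals, which overlapped for H19 and Phlda2, were not among these alternatives. Over single genes, 20 of 30 mean TPM values and 16 of 18 leading shares stayed within their spread. Among these, the values without replicate 1 or without replicate 2 lie within the SD by construction, so they could not move. The 10 mean TPM values and 2 shares that moved all came from the other alternatives. Even there the share of Kcnq1ot1, which has 1 annotated transcript, was fixed at 100%. Of the log2 ratios, 30 of 36 stayed within their counting error. The 1 called ratio, of H19, kept its sign. The ratio of Nap1l4, which was not called, went from -0.01 to 0.09 with spike-in totals and to 0.04 with TPM. The shifts over 1.5 times in a level were Igf2 at 3.26 TPM on the length of its longest transcript, an alternative chosen after seeing the data, and H19 at 0.985 TPM and Phlda2 at 0.48 TPM by the posterior mean. Nap1l4-206 fell to 5.62% of its gene in the second quantifier, against 52.7% in the gene pipeline. The other share that moved was Phlda2-201, at 68.6% in the second quantifier against 100% in the gene pipeline. No paired analysis was possible because the study holds 1 group. Depth limits H19 and Phlda2: 3 counts are 0.103 CPM in replicate 1 and 0.114 in replicate 2.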

Other observations

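These genes of the region were chosen for mention after their values were seen, R74862 and Mrgpre from outside the lists and Mrpl23 from the listed neighbours. R74862, a processed transcript that overlaps the start of Cd81, was at 1.71 TPM on 92 counts in replicate 1 and 1.66 TPM on 84 counts in replicate 2. Mrgpre, a receptor gene beyond Osbpl5, was at 1.51 TPM on 158 counts and 1.70 TPM on 159 counts. Mrpl23, a mitochondrial ribosomal protein gene next to the H19 side of the region, differed between quantifiers more than any of the 6 genes: the gene table gave it 1.71 and 2.56 TPM in replicates 1 and 2, and the second quantifier 34.1 and 31.5 TPM.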
